A study of Mus musculus with 6 samples.

Results

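The galectin family was read in livers of mice made chronically hyperlipidemic with the poloxamer P-407 and set against livers of saline-injected mice. Its members were the features of both array types whose annotated mouse symbol is Lgals1, Lgals2, Lgals3, Lgals4, Lgals7, Lgals8, Lgals9, Lgals12 or Lgals3bp. These 9 genes were 8 galectins and 1 galectin-binding glycoprotein. Each had 1 feature on the oligonucleotide array, and all 9 were measured on its 3 arrays, among 16871 genes. On the cDNA array 6 had a feature and 4 were measured on all 3 arrays, among 5011 genes. Lgals2, Lgals8 and Lgals12 were read on the oligonucleotide array only. The family was chosen because Lgals3 stood among the largest ratios on the oligonucleotide array, so every ratio of a member is given as a description and carries no p.

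Per the labels, 12 female C57BL/6 mice, 7 weeks old at the start, were injected intraperitoneally with P-407 at 0.5 g/kg, once every 3 days over 96 days, and their liver RNA was combined into 3 pools. The control was 1 pool of RNA from 4 mice that had saline on the same schedule and the same chow with 4.4% fat. All 6 arrays had the treated RNA labelled with Cy5 and the shared control RNA labelled with Cy3, with no dye swap. A gene's own dye effect and the spread between control animals therefore cannot be told apart from treatment. Values are the authors' deposited log ratios, centred on each array's median. Their base and direction are not stated in the value tables. They were read as log2 of treated over control, the direction resting on the array titles and dyes, and every higher or lower below depends on that reading. They hold no signal levels, the number of arrays limits the precision, and fewer cells of a type and less RNA per cell cannot be told apart in whole liver.

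Galectins bind galactose-containing glycans through a conserved carbohydrate recognition domain. They are made in the cytosol, leave the cell without a signal peptide, cross-link glycoproteins at the surface, and also gather on endosomes and lysosomes whose membrane has broken. Prototype galectins (Lgals1, Lgals2, Lgals7) carry a single domain, tandem-repeat galectins (Lgals4, Lgals8, Lgals9, Lgals12) carry a linked pair, and galectin-3 joins a single domain to a flexible tail that lets it assemble into larger complexes. In liver, galectin-3 is known as a product of macrophages, where it was first named Mac-2.

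Promoter sequence was available for 7 of the 9 members in a RefSeq table of build GRCm38.p6, and Lgals1 and Lgals12 had no entry. The 250 bases before the annotated start are shown for the members with the largest ratios that had an entry, Lgals3 and Lgals3bp, and for Lgals9, a tandem-repeat relative with ratios near 0. Capitals mark, on either strand, GGGCGG (a GC box) in Lgals3 and AANNGAAA (the core read by interferon regulatory factors) in Lgals3bp and Lgals9.
Lgals3, chr14:47373610-47373859, plus strand: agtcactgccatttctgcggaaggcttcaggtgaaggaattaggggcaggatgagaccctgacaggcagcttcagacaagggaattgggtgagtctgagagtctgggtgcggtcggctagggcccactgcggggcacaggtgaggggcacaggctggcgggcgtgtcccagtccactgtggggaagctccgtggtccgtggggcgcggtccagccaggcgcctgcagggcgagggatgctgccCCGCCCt
Lgals3bp, chr11:118401960-118402209, minus strand: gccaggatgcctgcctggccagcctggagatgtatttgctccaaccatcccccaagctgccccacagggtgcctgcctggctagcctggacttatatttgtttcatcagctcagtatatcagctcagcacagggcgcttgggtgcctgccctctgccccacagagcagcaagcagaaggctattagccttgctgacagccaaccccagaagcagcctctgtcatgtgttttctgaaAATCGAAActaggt
Lgals9, chr11:78984925-78985174, minus strand: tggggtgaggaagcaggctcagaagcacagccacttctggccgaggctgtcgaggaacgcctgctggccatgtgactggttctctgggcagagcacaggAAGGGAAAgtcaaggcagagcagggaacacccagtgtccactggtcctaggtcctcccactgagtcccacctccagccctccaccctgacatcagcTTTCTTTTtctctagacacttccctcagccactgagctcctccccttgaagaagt
The GC box of Lgals3 lay 7 to 2 bases before the start, and 32.7% of all 32851 promoter windows held such a box. Lgals3 held no AANNGAAA, Lgals3bp held 1, at 14 to 7 bases before the start, and Lgals9 held 2. The core was present in 21.3% of all windows. Lgals9 also held 1 interferon response element, searched as a pair of GAAA with any 2 bases between them. It overlaps 1 of the cores in Lgals9 and occurs in 2.98% of windows. None of the 7 windows held TGANTCA, the AP-1 motif, which 6.75% of all windows held. The E-box CACGTG, in 6.02% of all windows, and the core promoter motif TATAAA, in 12.4%, were also in none of the 7. These matches describe letters only, and binding was not measured.

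Lgals3, which encodes galectin-3, had by far the largest ratio of the family. On the oligonucleotide array its log2 ratio was 2.91, 2.86 and 2.35 in pools 1, 2 and 3, or 7.50-, 7.26- and 5.10-fold more RNA in the treated pools. The cDNA array gave, for the same pools, 4.78, 5.81 and 3.27, or 27.5-, 56.1- and 9.65-fold. All 6 arrays were far above 0, and pool 3 was the lowest on both array types. The mean was 2.71 ± 0.31 on the oligonucleotide array and 4.62 ± 1.28 on the cDNA array (SD, n = 3 pools each). Only 2 of 16871 genes had a higher mean on the oligonucleotide array, and none of the 5011 on the cDNA array did.

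Lgals3bp encodes a secreted glycoprotein that binds galectins, galectin-3 among them, and is not itself a galectin. Its log2 ratio was 1.21, 1.24 and 1.02 in pools 1, 2 and 3 on the oligonucleotide array, and 0.92, 1.01 and 0.73 on the cDNA array. All 6 values were above 0, with pool 3 again the lowest on both array types. The mean ratio was 2.23-fold on the oligonucleotide array (1.15 ± 0.12) and 1.85-fold on the cDNA array (0.89 ± 0.14). Of all genes, 0.462% had a higher mean on the oligonucleotide array and 10.3% on the cDNA array.

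Among the prototype galectins, Lgals1 stood apart from Lgals2 and Lgals7. Lgals1, whose product galectin-1 is made by fibroblasts, endothelium and leukocytes, had log2 ratios of 0.94, 1.18 and 0.70 in pools 1, 2 and 3 on the oligonucleotide array, a mean of 1.92-fold (0.94 ± 0.24). Lgals1 on the cDNA array was listed at 0 in pools 1 and 2, read here as not measured, and had 0.05 in pool 3. The cDNA array thus gave a single value for Lgals1, well below the 0.70 of the same pool on the other array. RefSeq also lists a pseudogene, Lgals1-ps1, and whether either feature reads it was not tested.

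Lgals2 encodes a galectin best known from the gut lining. Its ratios were 0.21, 0.08 and 0.03 in pools 1, 2 and 3, all close to 0 (mean 0.11 ± 0.10). Lgals7, known from keratinocytes of the skin, had 0.07, 0.18 and -0.04 on the oligonucleotide array (mean 0.07 ± 0.11), so its sign differed between pools. On the cDNA array Lgals7 was listed at 0 in pools 1 and 2 and had 2.16 in pool 3. That value rests on 1 array, while the oligonucleotide array put the same pool at -0.04. Lgals1 and Lgals2 lie on chromosome 15 with 3 protein-coding genes between them, and their ratio ranges, 0.70 to 1.18 and 0.03 to 0.21, did not overlap.

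The tandem-repeat galectins were near 0 or below it on the oligonucleotide array. Lgals4, of the intestinal epithelium, had log2 ratios of -0.60, -0.24 and -0.23 in pools 1, 2 and 3, a mean of -0.36 ± 0.21, 1.28-fold lower in the treated pools. The cDNA array gave 1.11, 1.32 and -0.41 for the same pools. The array types thus gave opposite signs in pools 1 and 2, and the cDNA mean of 0.67 was smaller than its own SD of 0.94. Without pool 3 the cDNA mean of Lgals4 was 1.22. Lgals4 and Lgals7 are direct neighbours on chromosome 7.

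Lgals8 encodes galectin-8, which marks damaged vesicles for autophagy. Its ratios were -0.19, -0.19 and -0.17, the tightest of the family, a mean of -0.18 ± 0.01. Lgals9, known as an interferon-induced galectin of immune cells and endothelium, had 0.12, 0.15 and -0.06 on the oligonucleotide array and 0.12, 0.25 and 0.10 on the cDNA array. Its means of 0.07 ± 0.11 and 0.16 ± 0.08 were both small. Lgals12, a galectin of fat cells and their lipid droplets, had 0.17, 0.08 and 0.12, a mean of 0.12 ± 0.05.

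**Figure D1:**
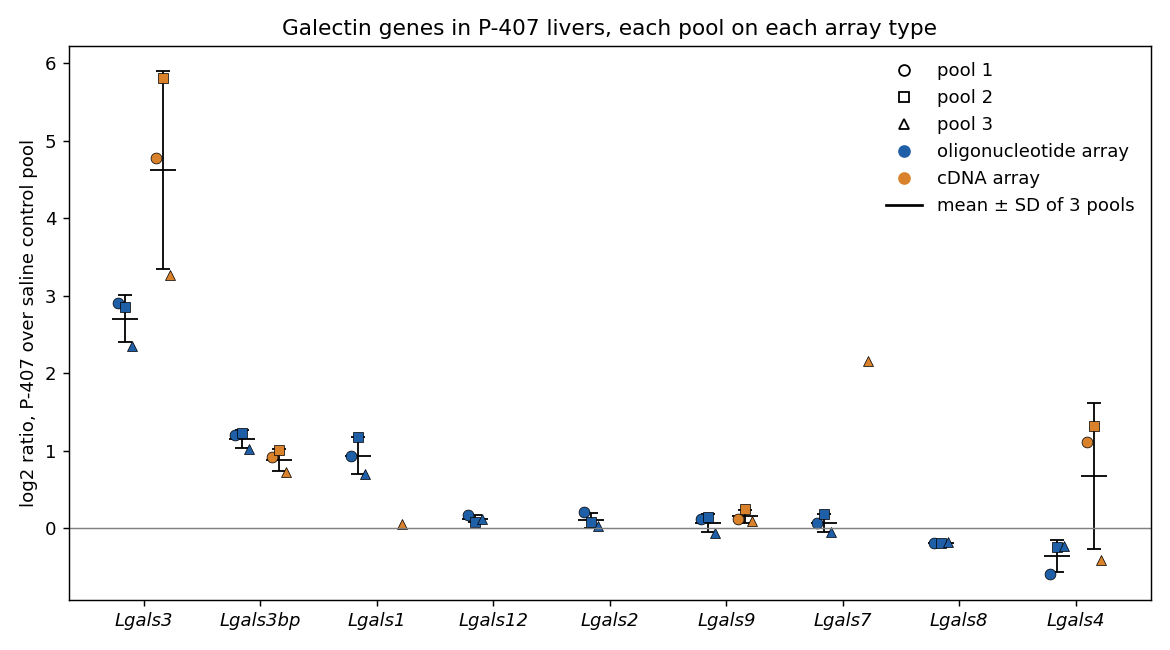
Log2 ratio of P-407 over the saline control pool for the 9 genes, ordered by their oligonucleotide mean, with blue points for oligonucleotide arrays, orange points for cDNA arrays and bars for the mean ± SD of 3 pools. Lgals3 lies at 2.35 to 2.91 and 3.27 to 5.81, above every other member on the same array type, and a lone orange triangle is a gene measured in pool 3 only.

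Ordered by mean ratio on the oligonucleotide array, the members ran Lgals3, Lgals3bp, Lgals1, Lgals12, Lgals2, Lgals9, Lgals7, Lgals8 and Lgals4. The lowest Lgals3 value, 2.35, stood above the highest Lgals3bp value, 1.24. Lgals3bp and Lgals1 overlapped, and so did each neighbouring pair from Lgals12 to Lgals7. Lgals1 did not overlap Lgals12, Lgals7 did not overlap Lgals8, and Lgals8 did not overlap Lgals4. The lowest Lgals8 value was -0.19 and the highest Lgals4 value was -0.23, a narrow gap.

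Set against its relatives pool by pool, Lgals3 exceeded Lgals3bp by 1.70, 1.62 and 1.33 on the log2 scale in pools 1, 2 and 3 of the oligonucleotide array. It exceeded Lgals1 by 1.97, 1.68 and 1.65. For the other 6 relatives the mean difference lay between 2.58 for Lgals12 and 3.06 for Lgals4. The cDNA ratio of Lgals3 exceeded that of Lgals3bp by 3.73 ± 1.14, Lgals4 by 3.95 ± 0.47 and Lgals9 by 4.46 ± 1.21. These are differences between ratios, not between levels of the RNAs.

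The 3 members with the largest ratios were lowest in pool 3 on the oligonucleotide array. Pool 3 was also the lowest pool in 195 of the 376 genes at least 1.5-fold higher on that array (51.9%), and in 740 of 929 such genes on the cDNA array (79.7%). Lower ratios in pool 3 were therefore common to many genes.

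A gene was called where limma, fitted across all genes of an array type, gave an adjusted p under 0.05. On the oligonucleotide array 7318 of 16871 genes were called (43.4%), 22.0% higher and 21.4% lower, and 8868 had an unadjusted p under 0.05 (52.6%). Of the 9 members, Lgals1, Lgals3 and Lgals3bp were called higher, Lgals4 and Lgals8 were called lower, and 4 were not called. Without pool 1, and without pool 2, Lgals8 was not called. The median log2 ratio was 0.11 over the members and 0.00 over all genes. Since these ratios brought the family forward, nothing is read from the counts. With the spread of each gene taken alone, 0 of the 9 members and 40 genes in all were called.

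On the cDNA array limma called 0 of 5011 genes (0.00%), with 1518 genes at an unadjusted p under 0.05 (30.3%). The spread of each gene taken alone called 1 gene. None of the 4 members measured there was called. In simulated normal ratios with the SDs of this array, a small random set of genes was changed. The same fit recovered 0% of changes of 1 on the log2 scale and 66% of changes of 2. The share of changed genes in the data is not known, so these recoveries may not hold for the real array. The real fit did not call Lgals3, at a mean of 4.62. A gene not called on the cDNA array is therefore not shown to be unchanged.

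The array types were then compared, since each RNA pool was split between them, per the series' design text, after direct labelling of 10 ug for the cDNA array and linear amplification from 0.5 ug for the oligonucleotide array. Over 4702 genes on all 6 arrays, the absolute value of a gene's mean ratio had a median of 0.14 on the oligonucleotide array and 0.40 on the cDNA array. The median SD over pools was 0.08 on the oligonucleotide array and 0.31 on the cDNA array. A test of the difference called 537 genes (11.4%), 6.25% with the higher ratio on the oligonucleotide array and 5.17% with the lower, and 1635 had an unadjusted p under 0.05 (34.8%). Of the 3 members other than Lgals3 measured on all 6 arrays, limma called 0, and 0 had an unadjusted p under 0.05. The oligonucleotide minus cDNA difference was 0.27 for Lgals3bp (95% interval -0.05 to 0.58, limma adjusted p = 0.193), -1.03 for Lgals4 (-2.21 to 0.15, adjusted p = 0.183) and -0.09 for Lgals9 (-0.37 to 0.19, adjusted p = 0.604). The fit behind these values did not pair the arrays by pool. With the pool as a replicate block, the limma adjusted p values were 0.225, 0.225 and 0.645, in the same order. The members were chosen with their oligonucleotide ratios in view, so these intervals and p values are given as a description only. For Lgals3, chosen by its oligonucleotide ratio, the difference of -1.91 is given without a test. Without pool 3 the test called 1077 genes, Lgals4 among them at -1.63. Without pool 1, without pool 2, and with the pool as a replicate block, it called 0 genes.

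**Figure D2:**
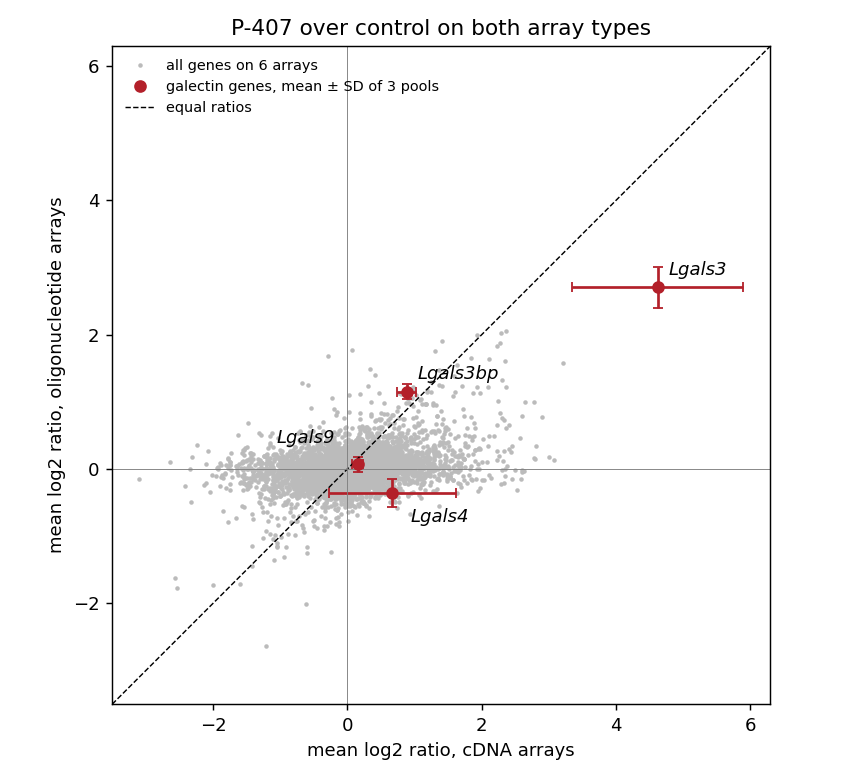
Mean log2 ratio on the oligonucleotide arrays against that on the cDNA arrays for the 4702 genes on all 6 arrays (grey), with 4 galectin genes in red (mean ± SD of 3 pools) and the line of equal ratios dashed. Lgals3 lies alone at the upper right with 2.71 against 4.62, Lgals3bp and Lgals9 lie near the line, and Lgals4 lies below 0 on one axis and above 0 on the other.

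The 5 genes nearest to Lgals3 over the 3 oligonucleotide arrays, by Euclidean distance between log2 ratios, were Clec7a, Gpr137b, Syngr1, Vcam1 and Arhgap25. Clec7a, a macrophage receptor for fungal glucans, lay at a distance of 0.27, with 2.83, 2.65 and 2.50 in pools 1, 2 and 3. Its range overlapped that of Lgals3, and pool 3 was the lowest in both. The other 4 lay at 0.87 to 1.17, with means of 2.24 for Gpr137b, 2.07 for Syngr1 and 2.06 for both Vcam1 and Arhgap25. Vcam1, to which leukocytes adhere on activated endothelium, was the only one of the 5 measured on the cDNA array, with 2.65, 2.47 and 1.96. Likeness here is closeness of 3 ratios that share 1 control pool.

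**Figure D3:**
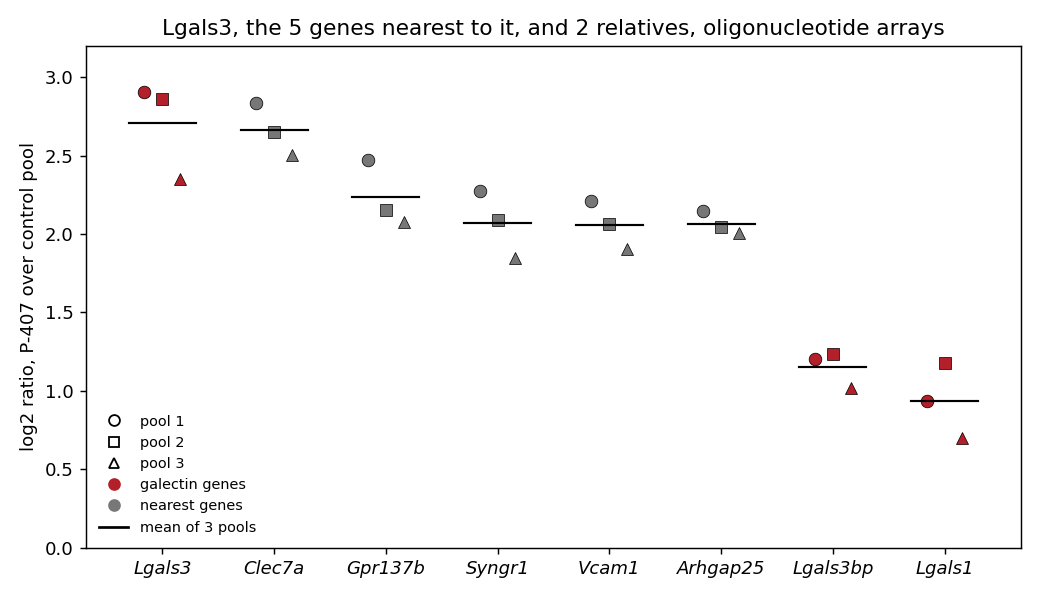
Log2 ratio of P-407 over control on the 3 oligonucleotide arrays for Lgals3, the 5 genes nearest to it and the relatives Lgals3bp and Lgals1, with a symbol for each pool and a line at the mean. Clec7a overlaps Lgals3, the other 4 nearest genes lie at means of 2.06 to 2.24, and Lgals3bp and Lgals1 lie at 1.15 and 0.94.

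Lists of galectin partners and of cell type markers were then counted, on the oligonucleotide array unless the cDNA array is named, beside the 22.0% of all genes called higher there and the 21.4% called lower. The lists were chosen with earlier results of these data known, so their counts and p values are given as a description. Of 29 genes listed as galectin ligands or receptors, 12 were higher, 6 lower and 11 not called, with a median log2 ratio of 0.08 against 0.00 over all genes. The list held Basp1, not a known ligand, by mistake, and without it, a change made after seeing the data, 11 of 28 were higher and 6 lower. The smallest p belonged to Trem2, a lipid receptor of macrophages reported to bind galectin-3, at 4.31 ± 0.19 (limma adjusted p = 1.57e-05). The TGF-beta receptor gene Tgfbr2 (0.72 ± 0.14, adjusted p = 8.81e-04) and the leukocyte integrin gene Itgb2 (0.63 ± 0.11, adjusted p = 9.30e-04) were also higher. Without pool 3, 4 of these genes were lower.

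Partners chosen by their role, after values were seen, differed within the same list. Havcr2, the Tim-3 receptor that galectin-9 binds, had 0.78, 0.46 and 0.64 in pools 1, 2 and 3 and was called higher, beside Lgals9 ratios of -0.06 to 0.15 on that array. Mertk, a receptor for dead cells reported to take galectin-3 as a ligand, was higher at 0.36 ± 0.08 (adjusted p = 0.00298). Of the lysosomal membrane glycoprotein genes, Lamp1 was higher at 0.28 ± 0.01 (adjusted p = 0.00360) and Lamp2 lower at -0.28 ± 0.10 (adjusted p = 0.00808), while the cDNA array, which called neither, gave 0.27 for Lamp1 and 0.48 for Lamp2. P4hb, a disulfide isomerase that galectin-9 also binds (-0.36 ± 0.03, adjusted p = 0.00190), and the integrin genes Itgb1 (-0.29 ± 0.11, adjusted p = 0.00866) and Itgam (-0.43 ± 0.06, adjusted p = 0.00135) were lower.

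Of 25 enzymes and transporters that build or cap galectin-binding glycans, 4 were higher, 6 lower and 15 not called (median 0.02), a share near the 43.4% of all genes called. The sialyltransferase genes St3gal4 (-0.64 ± 0.13, adjusted p = 0.00110) and St3gal6 (-0.41 ± 0.02, adjusted p = 0.00121), which cap galactose with sialic acid, were lower. The galactosyltransferase genes B4galt6 (0.38 ± 0.07, adjusted p = 0.00213) and B4galt2 (0.32 ± 0.05, adjusted p = 0.00291) were higher. Their cDNA means had the other sign, -0.22 ± 0.43 for B4galt6 and -0.58 ± 1.54 for B4galt2, with pools on both sides of 0. Leaving out any 1 pool left 2 of these genes higher, and leaving out pool 1 or pool 2 left 4 lower.

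Of 21 genes that act where galectins gather on broken lysosomes, 6 were higher, 3 lower and 12 not called (median 0.00), again near the 43.4% of all genes. The annexin genes Anxa2 (1.49 ± 0.28, adjusted p = 5.40e-04) and Anxa1 (0.71 ± 0.12, adjusted p = 6.85e-04) and the autophagy receptor gene Sqstm1 (0.52 ± 0.05, adjusted p = 7.71e-04) were higher. On the cDNA array Anxa2 had -0.11 in pool 1, 1.10 in pool 2 and 0.04 in pool 3. Gabarapl1, which encodes an autophagosome protein, was lower at -0.26 ± 0.05 (adjusted p = 0.00533). Lgals8, a member known for this pathway, lay at -0.18, while Lgals3 lay at 2.71. Without pool 1, 4 genes of the list were higher and 2 lower, and without pool 2, 5 and 1.

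Markers of the cell types known for each galectin were set beside the members, and their part in the member ratios was not tested. Of 18 macrophage markers, 13 were higher and 4 lower, with pool means of 1.02, 0.81 and 0.90 in pools 1, 2 and 3, while Lgals3 had 2.91, 2.86 and 2.35. Gpnmb (4.63 ± 0.07, adjusted p = 1.13e-06), Trem2 and Cd68 (1.61 ± 0.09, adjusted p = 8.23e-05) were higher, and Cd163, the haemoglobin scavenger receptor, was lower (-1.77 ± 0.13, adjusted p = 1.10e-04). On these arrays the mean of the list was lowest in pool 2, where Marco had -2.10 against -0.95 and -0.66 in pools 1 and 3. Lgals3 was lowest in pool 3. Single markers differed: Gpnmb, Trem2 and Cd68 were lowest in pool 3, and Adgre1 and Lyz2 in pool 2. The cDNA array gave the list pool means of 0.72, 0.94 and 0.51, lowest in pool 3 as Lgals3 was there. Of the 12 markers measured there, 8 had a mean above 0 and 4 below. Among the latter, C1qa had -0.23 there against 1.06 on the oligonucleotide array. No marker's absence can be stated, because the values are ratios.

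Beside Lgals1, 12 of 14 markers of stellate cells and fibroblasts were higher and 0 lower, with pool means of 0.53, 0.52 and 0.40. The intermediate filament gene Vim (1.49 ± 0.25, adjusted p = 4.34e-04), the collagen gene Col3a1 (0.85 ± 0.05, adjusted p = 2.66e-04), Pdgfrb (0.56 ± 0.09, adjusted p = 9.15e-04) and Lum (0.41 ± 0.05, adjusted p = 0.00152) led by p. On these arrays pool 3 had the lowest mean of this list and the lowest Lgals1 ratio, while the list's cDNA pool means of 0.26, 0.61 and 0.56 were lowest in pool 1. Of the 9 markers measured on the cDNA array, 5 had a mean above 0 and 4 below. Acta2 was among the latter, at -0.20 there against 0.55 on the oligonucleotide array. Endothelium and leukocytes were also named above for Lgals1. On the oligonucleotide array, 0 endothelial markers were higher and 3 lower of 10. Neutrophil markers had 8 of 8 higher, and lymphocyte markers had 6 higher and 1 lower of 10.

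Beside Lgals9 and Lgals3bp, both known as interferon-induced, the interferon-response list had 13 of its 17 genes higher and 0 lower, with pool means of 0.43, 0.51 and 0.42. Cxcl10 (0.99 ± 0.10), Ifit1 (0.80 ± 0.07), Gbp2 (0.75 ± 0.08) and Gbp3 (0.57 ± 0.02) were among them, with adjusted p of at most 5.69e-04. Lgals3bp at 1.15 lay above the highest of the 17, Cxcl10, and Lgals9 at 0.07 was level with the lowest, Rsad2 (0.07). The cDNA array gave another order. There Oasl2 (2.40), Gbp2 (1.43), Ifit1 (1.34) and Rsad2 (1.29) lay above Lgals3bp (0.89). Psmb8 (-0.14), Ifit2 (-0.05) and Irf7 (-0.05) lay below Lgals9 (0.16). Of the 10 list genes measured there, 7 had a mean above 0 and 3 below.

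The adipocyte list, beside Lgals12, had 2 of 9 higher and 2 lower (median -0.03), near the share over all genes. Fabp4, a fatty acid carrier of fat cells and macrophages, was higher at 1.23 ± 0.21 (adjusted p = 5.08e-04) and Plin1, the lipid droplet coat of fat cells, was lower at -0.34 ± 0.04 (adjusted p = 0.00226). Pparg, the fat cell receptor, was higher at 0.30 ± 0.02 (adjusted p = 0.00284), and 1 gene was lower without pool 1.

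The intestinal list, beside Lgals2 and Lgals4, had 3 of 9 higher and 2 lower (median -0.06). Tff3 (0.45 ± 0.11, adjusted p = 0.00214) and Muc13 (0.50 ± 0.15, adjusted p = 0.00279) were higher, the regulator gene Cdx1 was lower (-0.32 ± 0.08, adjusted p = 0.00422), and 1 gene was lower without pool 1 or without pool 3. Muc13 had the other sign on the cDNA array, at -1.15 ± 0.30 and below 0 in all 3 pools, and was not called there. The keratinocyte list, beside Lgals7, had 4 of 10 higher and 2 lower (median 0.10). Krt1 was lower at -0.43 ± 0.13 (adjusted p = 0.00350). Without pool 1, 0 keratinocyte markers were higher, and without pool 2, 2 were higher and 1 lower.

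The remaining marker lists gave 0 higher and 7 lower of 12 for hepatocytes (median -0.41), 8 higher of 8 for neutrophils (0.53), 6 higher and 1 lower of 10 for lymphocytes (0.20), 0 higher and 3 lower of 10 for endothelium (-0.03) and 2 higher of 6 for bile duct cells (0.08). Arg1, an enzyme of the urea cycle, was lower at -0.70 ± 0.03 (adjusted p = 3.80e-04), and the neutrophil calgranulin gene S100a8 was higher at 1.33 ± 0.29 (adjusted p = 7.14e-04). Without pool 1, 0 endothelial markers were lower, and without either pool 2 or pool 3, 1 was. Bile duct markers called higher numbered 1 without pool 1 or pool 2. With any pool left out, 4 lymphocyte markers were higher, and 0 were lower without pool 1 or pool 3. The cDNA array called 0 genes of the 14 lists by limma, with medians from -0.42 for lymphocyte markers to 1.13 for macrophage markers.

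**Figure D4:**
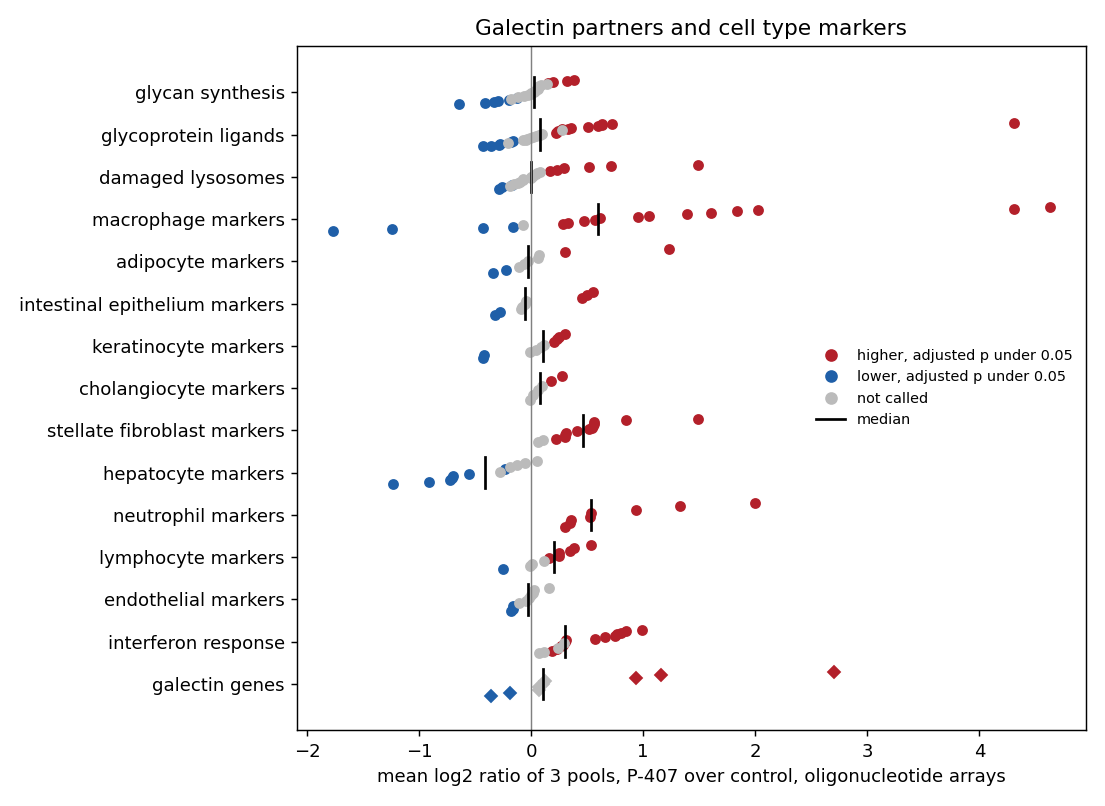
Mean log2 ratio of P-407 over control on the oligonucleotide arrays for each gene of the 14 lists (circles) and the 9 galectin genes (diamonds, bottom), red where called higher, blue where called lower and grey where not called, with a line at each median. The galectin genes have a median of 0.11 with Lgals3 at 2.71, while the macrophage list reaches 4.63 and the hepatocyte list lies mostly below 0.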

How the data were processed

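The log2 ratios were made by the authors, 1 per feature and array, and deposited as value tables. The sources used here do not name the normalization, filters, log base or direction of the values. The direction was taken from the titles and dyes in the labels. Deposited values of exactly 0 were treated as missing, and the median of the other features was subtracted per array (0.01 on each oligonucleotide array, and -0.07, -0.09 and -0.02 on the cDNA arrays). Gene names came from GEO's annotation of the platforms, and features with 1 gene were kept (18658 of 22575 and 7410 of 13482). Features of a gene were averaged.

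Each array type was fitted alone against 0 with limma 3.58.1 in R 4.3.3 (lmFit, eBayes), with Benjamini-Hochberg adjustment over all genes and a threshold of 0.05. The spread between control animals is left out. Per the series' design text each RNA pool was split over both array types, so pool numbers pair the arrays. Their deviations correlated at 0.06, 0.07 and 0.07 over 4702 genes. The difference between array types was also fitted with the pool as a block. The fit was tested on simulated data. The labels do not say how mice were assigned to pools.

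The members and the 14 lists were chosen with earlier results of these data known. Named were all 9 members, of each list up to 4 called genes of smallest p, and the 5 genes nearest to Lgals3. Alternatives were other centring, zeros kept, single features, values on at least 2 arrays, quantile normalization, each pool left out, the spread of each gene alone, and the mean of both arrays of a pool. Promoters are from RefSeq.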

Additional observations from a re-analysis of the deposited data

How the results depend on the processing

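The members called on the oligonucleotide array numbered 4 to 5 when 1 pool was left out, 3 of them higher and 1 to 2 lower, and all genes called numbered 4025 to 6244. With the spread of each gene taken alone, 0 members were called, 0 higher and 0 lower, with 40 genes called on that array and 1 on the cDNA array. Lgals4 took another sign, at 0.16, on the mean of both arrays of a pool, which was run for Lgals3, Lgals3bp, Lgals4 and Lgals9 only. Quantile normalization put Lgals3 at 3.22 on the oligonucleotide array. Without centring, Lgals12 was called higher as well.

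Among genes on all 6 arrays, the mean of both arrays of a pool called 2 of 4 members (3 on the oligonucleotide array alone) against a background of 5.10%. That mean includes the oligonucleotide ratios that brought the family forward, so nothing is read from the count of members. The same setting called 0 of 11 glycan enzymes, 1 of 15 glycoprotein ligands, 1 of 8 genes of damaged lysosomes, 5 of 12 macrophage, 1 of 4 adipocyte, 0 of 3 intestinal, 0 of 2 keratinocyte, 0 of 3 bile duct, 1 of 9 stellate, 2 of 9 hepatocyte, 2 of 4 neutrophil, 0 of 7 lymphocyte and 0 of 3 endothelial markers and 3 of 9 interferon-response genes. The cause was not tested.

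With 1 pool left out, genes called in either direction numbered 6 to 7 for glycan enzymes (10 with all pools), 2 to 5 for keratinocyte markers (6), 1 to 2 for bile duct markers (2), 4 to 5 for lymphocyte markers (7) and 0 to 2 for endothelial markers (3). The difference between array types called 537 genes without a block and 0 with the pool as a replicate block, which pairs the arrays by their RNA. Leaving out 1 pool gave 0 to 1077 genes, and 0 to 1 of the 3 members other than Lgals3. With all pools, none of these 3 was called with or without the replicate block, which called 0 genes in all.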

Other observations

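A pair of galectin relatives that are not members was also on the arrays, and their values were looked up after those of the family were seen. Lgalsl, which encodes a galectin-related protein without known sugar binding, had log2 ratios of 1.08, 0.75 and 0.84 in pools 1, 2 and 3 on the oligonucleotide array, and 1.85, 2.16 and 1.16 on the cDNA array. Its means of 0.89 ± 0.17 and 1.72 ± 0.51 lay close to Lgals1 (0.94) on the first array type and between Lgals3bp (0.89) and Lgals3 (4.62) on the second. Grifin, a galectin-related protein of the lens, had -0.04, 0.01 and -0.19, a mean of -0.07 ± 0.10.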
